A study of Mus musculus with 4 samples.

Results

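DNA methyltransferases copy and set the methyl groups on cytosine, and they act through proteins that bring them to DNA. The 8 genes described here are the methyltransferases Dnmt1, Dnmt3a and Dnmt3b and the recruiting or regulating partners Uhrf1, Uhrf2, Usp7, Dmap1 and Hells. They were taken by gene symbol from an RNA-seq table of 13834 genes, all 8 were listed there, and all 8 were among the 12542 genes that passed the filter on low counts. The rule uses gene symbols and no measured value, although earlier results of these data were known when the genes were chosen.

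During replication the new strand of DNA lacks the methyl groups of the old one. UHRF1 binds such hemimethylated sites and ubiquitinates histone H3, a mark that DNMT1 reads before it copies the methylation. USP7 removes ubiquitin from DNMT1 and UHRF1, DMAP1 binds the N-terminal part of DNMT1, and HELLS (LSH) remodels nucleosomes so that methyltransferases reach DNA. DNMT3A and DNMT3B place methyl groups on unmethylated sites.

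The cells were peritoneal macrophages of 10-week-old mice, lavaged 3 days after thioglycolate broth was injected into the peritoneum, and the methods describe a culture step after lavage without saying whether the sequenced cells went through it. The 2 Dnmt1fl/fl samples, whose genotype is labelled wt, carried floxed Dnmt1 alleles (B6.129S4-Dnmt1tm2Jae/Mmucd), and the 2 Dnmt1KO samples carried the same floxed alleles with a Cre recombinase driven by the LysM (Lyz2) promoter of myeloid cells, so that both groups share the floxed allele. The sequencing asked how loss of Dnmt1 affects the transcriptome as a whole. The sex of the mice was not collected. It is not stated whether each sample came from 1 mouse or from pooled mice, and the p-values therefore measure only the spread between these samples.

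The libraries held between 20228071 and 24198943 counts each. Values are given as CPM, counts scaled to a common library size, after adjustment by TMM, a trimmed mean of the log ratios between samples. A count of 3, taken as the floor, corresponded to 0.124 to 0.148 CPM and covers counting error only. All 7 macrophage markers were listed, with a summed level of 5741 to 6555 CPM. The libraries differed in markers of other cells of the peritoneal cavity. The sum of the neutrophil markers, of which 5 of 7 were listed (Camp and Ngp were not), was 20.9 and 103 CPM in Dnmt1fl/fl replicates 1 and 2 and 532 and 23.5 CPM in Dnmt1KO replicates 1 and 2, and the sum of the 6 B cell markers was 318, 483, 130 and 525 CPM in the same order. Dnmt1KO replicate 1 thus stood apart in both lists, and the fold change of each member without it is given beside the main one. In bulk RNA, fewer cells of a type and less RNA per cell cannot be told apart.

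Promoter windows of the members were read first, since E2F factors, which drive genes of DNA replication, bind near the start of many genes of this kind. Windows of 250 bases before to 50 bases after the transcription start came from RefSeq (GRCm38.p6, the assembly called mm10), and all 8 members had at least 1. They were searched on both strands for 4 words of 8 bases, TTTCCCGC, TTTGGCGC, TTTCGCGC and TTTGCCGC. A word was found for 3 of 8 members (37.5%), namely Dnmt1, Uhrf1 and Hells, against 2.6% of the 27025 genes with a window and 4.64% of the 9868 tested genes with one. It was found for 5 of 14 cell cycle genes with a window (35.7%) and for 2 of 19 other genes of the methylation machinery (10.5%). A window that began 100 bases before the start held a word in 2 of 8 members (25%), against 2.53% of tested genes and 21.4% of the cell cycle genes. The words are shown because these 3 members are the ones whose levels are set against the cell cycle genes. Each line gives 30 bases on the strand of the gene, with the word in capitals:
Dnmt1, chr9:20952824-20952853, minus strand, word TTTCGCGC on the opposite strand, in an annotated exon and untranslated region: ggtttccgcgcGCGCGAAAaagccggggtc
Dnmt1, chr9:20952574-20952603, minus strand, word TTTGGCGC, in an annotated exon and untranslated region: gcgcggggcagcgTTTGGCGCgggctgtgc
Uhrf1, chr17:56304117-56304146, plus strand, word TTTCGCGC, within the gene and in no annotated exon: cccgagtcgggTTTCGCGCgcccaggcgtc
Hells, chr19:38930917-38930946, plus strand, word TTTCCCGC, in an annotated exon and untranslated region: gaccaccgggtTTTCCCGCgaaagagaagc
A match to these letters is a description, not a binding site, and the counts do not tell which start the macrophages used. Both Dnmt1 words lay in the same 1 of its 3 windows, at bases -219 and 34 from that start. The CpG content of the windows, as observed over expected, was 0.91 in that Dnmt1 window, 0.10 and 0.50 in its other windows, and 1.14 in Usp7. The median was 0.83 over the windows of the members, 0.75 over the promoters of tested genes and 0.38 over all promoters. All 4 words contain a CpG. The 8 members had 13 windows, while 27025 genes had 32851. The shares of genes with a word were thus matched neither for CpG content nor for the number of windows.

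Dnmt1, the maintenance methyltransferase and the targeted gene, was lower in both knockout samples (chr9:20907209-20959888, minus strand). It had 86.6 and 67 CPM in Dnmt1fl/fl replicates 1 and 2 and 37 and 42.7 CPM in Dnmt1KO replicates 1 and 2. The groups did not overlap, and the knockout samples held 48.1% and 55.6% of the Dnmt1fl/fl mean. Group means were 76.8 ± 13.9 CPM (SD, n = 2) and 39.8 ± 4.07 CPM (SD, n = 2). The log2 fold change of Dnmt1KO against Dnmt1fl/fl was -0.95 with a standard error of 0.24 and a 95% interval of -1.54 to -0.35, and it was -0.85 without Dnmt1KO replicate 1. In edgeR's quasi-likelihood test the unadjusted p was 0.00839, and the Benjamini-Hochberg adjusted p over all genes was 1.00. By that p Dnmt1 was ranked 4 among 12542 genes, and 0.67% of genes had a fold change as low or lower. The deposited counts pool all exons, and which exons are floxed is not given in the sources used here. Transcripts that keep the other exons still count, so that the remaining Dnmt1 count is a limited check of the deletion.

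No gene of the whole table passed an adjusted p of 0.05 in edgeR (0% of 12542). At an unadjusted p under 0.05 edgeR called 35 genes (0.279%), of which 14 were higher and 21 lower in Dnmt1KO, and DESeq2 called 1 gene after adjustment. Among the 8 members 0 passed the adjusted threshold and 1, Dnmt1, passed the unadjusted one. Both knockout samples lay below both Dnmt1fl/fl samples in 1 member, Dnmt1, and above them in 1 member, Dmap1, while 8.56% of all tested genes lay below and 8.14% above. The median log2 fold change was -0.13 over the members and 0.00 over all tested genes.

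**Figure D1:**
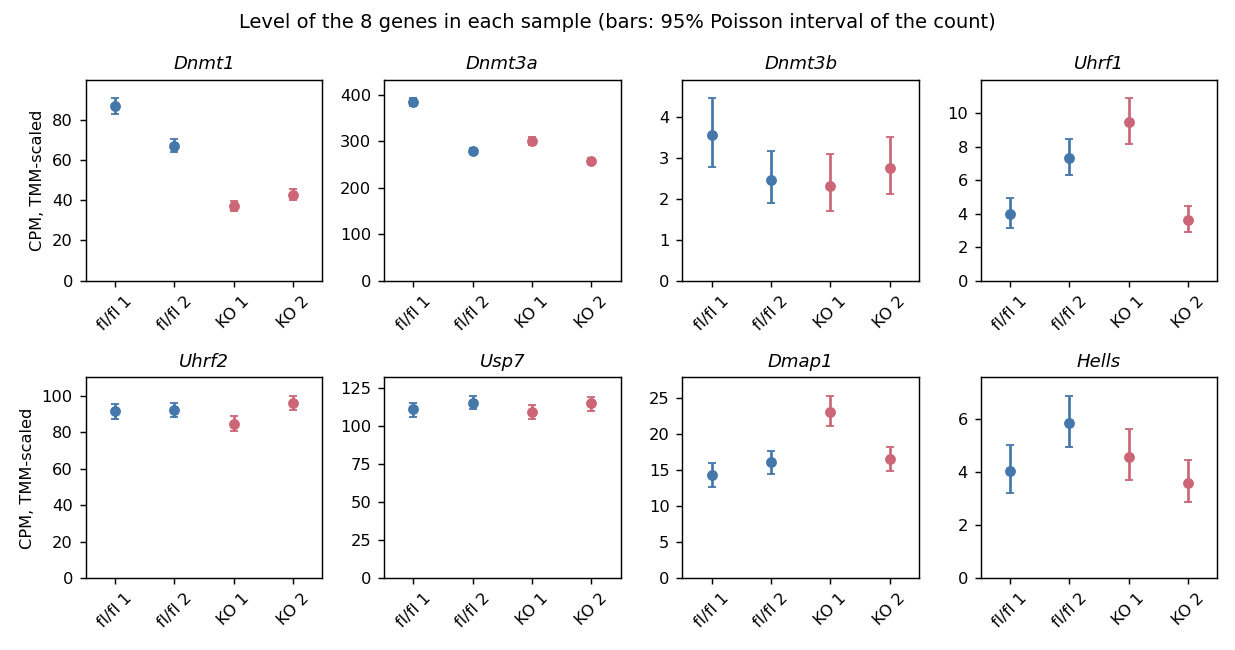
Normalised level of each of the 8 members in the 4 samples, in CPM on axes that start at 0, with 1 panel per gene, blue points for Dnmt1fl/fl, red points for Dnmt1KO and a bar for the 95% Poisson interval of each count. Dnmt1 is the member with both knockout samples well below both Dnmt1fl/fl samples, at 37 and 42.7 against 86.6 and 67 CPM.

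Dnmt3a, a methyltransferase of unmethylated sites, was the most abundant member (chr12:3806007-3914443, plus strand). Its level was 384 and 279 CPM in Dnmt1fl/fl and 300 and 258 CPM in Dnmt1KO. The knockout samples lay on both sides of Dnmt1fl/fl replicate 2, so that the groups overlapped. The log2 fold change was -0.25 (SE 0.26, 95% interval -0.90 to 0.40, edgeR adjusted p 1.00). It was -0.37 without Dnmt1KO replicate 1, and it ranged from -0.46 without Dnmt1fl/fl replicate 2 to -0.0025 without Dnmt1fl/fl replicate 1. When a trend with gene length was removed from each library, it was 0.0052, so that no direction can be given. Dnmt3a was also the single member that shares exon bases with another gene. The antisense gene Dnmt3aos covers 133 of its exon bases (0.8%) and had 26.2, 16.9, 19.5 and 15.4 CPM. Whether the counting used strand is not stated, and reads over these bases could be counted for either gene.

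Dnmt3b, the other methyltransferase of unmethylated sites, was near the low end of the members (chr2:153649450-153687730, plus strand). It had 3.56 and 2.47 CPM in Dnmt1fl/fl and 2.32 and 2.75 CPM in Dnmt1KO, from 46 to 73 counts per library. Counting error alone was wide at this depth, since the exact Poisson interval was 33.7 to 61.4 for 46 counts and 57.2 to 91.8 for 73 counts. The log2 fold change was -0.24 (SE 0.41, 95% interval -1.26 to 0.77, edgeR adjusted p 1.00), and a difference between the groups was not detectable. It was -0.13 without Dnmt1KO replicate 1, -0.48 without Dnmt1fl/fl replicate 2 and 0.04 without Dnmt1fl/fl replicate 1.

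Uhrf1, the reader of hemimethylated DNA that brings DNMT1 to replicated sites, varied most between samples of 1 group (chr17:56303321-56323486, plus strand). It had 3.95 and 7.34 CPM in Dnmt1fl/fl and 9.44 and 3.6 CPM in Dnmt1KO. The highest and the lowest value were both in the knockout. Dnmt1KO against Dnmt1fl/fl gave a log2 fold change of 0.20 (SE 0.56, 95% interval -1.20 to 1.61, edgeR adjusted p 1.00). Its sign rested on single libraries, since it was -0.65 without Dnmt1KO replicate 1, -0.17 without Dnmt1fl/fl replicate 1 and 0.74 without Dnmt1KO replicate 2.

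Uhrf2, the paralog of Uhrf1, and Usp7, the deubiquitinase of DNMT1 and UHRF1, were nearly level across the samples. Uhrf2 (chr19:30030513-30093722, plus strand) had 91.4 and 92 CPM in Dnmt1fl/fl and 84.6 and 96.1 CPM in Dnmt1KO, and the knockout values enclosed those of Dnmt1fl/fl. Usp7 (chr16:8689595-8792308, minus strand) had 111 and 115 CPM in Dnmt1fl/fl and 109 and 115 CPM in Dnmt1KO. Log2 fold changes were -0.02 (95% interval -0.55 to 0.51) for Uhrf2 and -0.01 (95% interval -0.53 to 0.51) for Usp7. Without Dnmt1KO replicate 1 both turned sign, to 0.065 for Uhrf2 and 0.018 for Usp7. The 95% intervals of both leave room for a change of about 0.5 in either direction on the log2 scale.

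Dmap1, a DNMT1-associated protein that is also a subunit of chromatin complexes, was higher in both knockout samples (chr4:117674681-117682273, minus strand). It had 14.3 and 16.1 CPM in Dnmt1fl/fl and 23.1 and 16.5 CPM in Dnmt1KO. The groups did not overlap by their values, but the counting interval of Dnmt1KO replicate 2 (14.9 to 18.2 CPM) covered that of Dnmt1fl/fl replicate 2 (14.5 to 17.7 CPM) for the most part. Its log2 fold change was 0.38 (SE 0.27, 95% interval -0.29 to 1.06, edgeR adjusted p 1.00), and it was 0.12 without Dnmt1KO replicate 1 and 0.61 without Dnmt1KO replicate 2.

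Hells, the nucleosome remodeller of the group, was low in every sample (chr19:38930915-38971051, plus strand). It had 4.04 and 5.86 CPM in Dnmt1fl/fl and 4.59 and 3.6 CPM in Dnmt1KO, and the groups overlapped. For Hells the log2 fold change was -0.28 (SE 0.37, 95% interval -1.19 to 0.64, edgeR adjusted p 1.00), and it was -0.46 without Dnmt1KO replicate 1, -0.52 without Dnmt1fl/fl replicate 1 and 0.024 without Dnmt1fl/fl replicate 2.

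**Figure D2:**
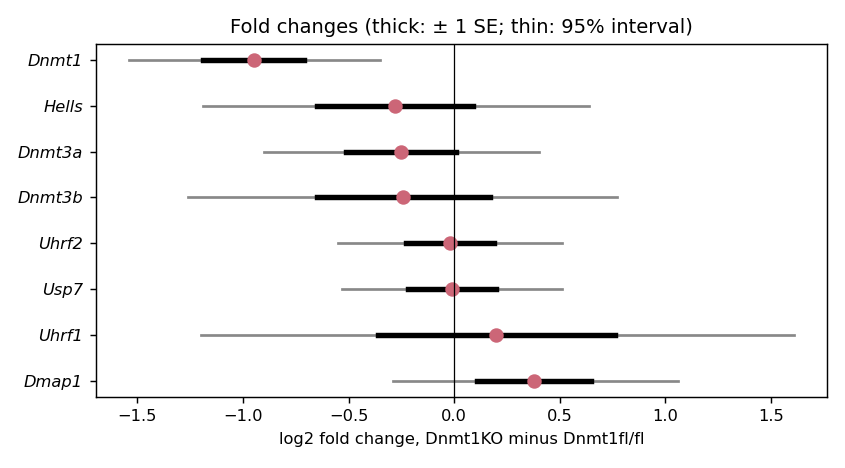
Log2 fold change of Dnmt1KO against Dnmt1fl/fl for each member, as a point with a thick bar of 1 standard error and a thin bar of its 95% interval from edgeR, with a line at 0. The interval of Dnmt1 (-1.54 to -0.35) is the one that does not reach 0.

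The members spanned a wide range of levels when counts were divided by gene length. Per kilobase of all annotated exons, Dnmt3a had 19.9 ± 4.46 CPM in Dnmt1fl/fl (SD, n = 2), followed by Usp7 with 14.6 ± 0.443, Uhrf2 with 10.7 ± 0.0469 and Dnmt1 with 10.4 ± 1.88. Dmap1 had 5.76 ± 0.481, Uhrf1 1.32 ± 0.563, Hells 0.687 ± 0.178 and Dnmt3b 0.59 ± 0.15 CPM per kilobase. Dnmt3a stood above Usp7, Usp7 above Uhrf2, Dmap1 above Uhrf1, and Uhrf1 above Hells in all 4 samples. The order of Uhrf2 and Dnmt1 held in 3 of 4 samples, and that of Hells and Dnmt3b in 2 of 4. Dnmt1 was also above Dmap1 in 2 of 4 samples, both of them Dnmt1fl/fl, with 5.4 ± 0.551 for Dnmt1 and 7.51 ± 1.78 for Dmap1 in Dnmt1KO (SD, n = 2). With the length of the longest transcript, 6 of 8 members kept their place, and Uhrf2 and Usp7 changed places.

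**Figure D3:**
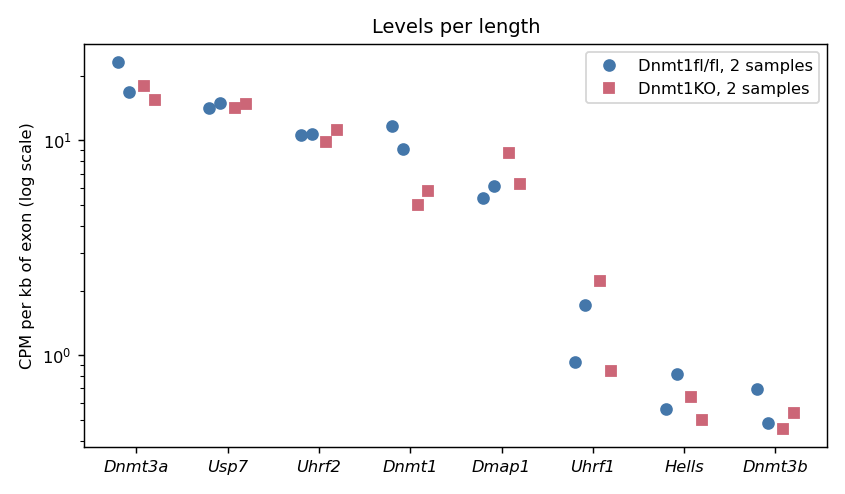
Level of each member per kilobase of annotated exons in the 4 samples, in CPM per kilobase on a log axis, with the members ordered by their Dnmt1fl/fl mean. Dnmt3a is at the top with 19.9 and Dnmt3b at the bottom with 0.59 CPM per kilobase.

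On this scale Dnmt1 made up 33% and 34.5% of the summed level of the 3 methyltransferases in Dnmt1fl/fl and 21.3% and 26.5% in Dnmt1KO. Dnmt3a made up 65% and 63.7% in Dnmt1fl/fl and 76.7% and 71% in Dnmt1KO, and Dnmt3b between 1.84% and 2.47% in all samples. The share of Dnmt3a was thus higher in both knockout samples, while its own level was not, since a share moves when any of its parts moves.

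The ratio of Dnmt1 to other genes within a sample does not depend on library scaling. The log2 ratio of Dnmt1 to Dnmt3a counts was -2.15 and -2.06 in Dnmt1fl/fl and -3.02 and -2.59 in Dnmt1KO, a difference of -0.70. Against the mean log2 level of 16 cell cycle genes it was 3.04 and 2.18 in Dnmt1fl/fl and 1.12 and 1.89 in Dnmt1KO, a difference of -1.10. In both ratios the groups did not overlap, and the exact permutation p, two-sided, was 0.33, the smallest that 2 against 2 samples allow. The ratios to Uhrf1 (difference -1.05) and to Hells (difference -0.68) overlapped between the groups, with an exact permutation p of 0.667 each. When 1 sample was left out, the difference ranged from -0.92 to -0.49 for Dnmt3a, from -1.53 to -0.67 for the cell cycle genes, from -1.85 to -0.26 for Uhrf1 and from -1.13 to -0.23 for Hells. The values nearest to 0 came without Dnmt1KO replicate 1 for Dnmt3a and Uhrf1, and without Dnmt1fl/fl replicate 1 for the cell cycle genes and Hells. The values farthest from 0 came without Dnmt1KO replicate 2 for Dnmt3a and Uhrf1, and without Dnmt1fl/fl replicate 2 for the cell cycle genes and Hells. For all 4 ratios the Benjamini-Hochberg adjusted value of the exact permutation p was 0.667.

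Uhrf1 and Hells had their highest values in the same samples, Dnmt1fl/fl replicate 2 and Dnmt1KO replicate 1. For Hells this order lay within counting error. Its counting interval was 3.7 to 5.64 CPM in Dnmt1KO replicate 1 and 3.22 to 5.01 CPM in Dnmt1fl/fl replicate 1. Uhrf1 and Hells were 2 of 8 members (25%), a share close to the 28.7% of all tested genes. Dnmt1fl/fl replicate 2 and Dnmt1KO replicate 1 were also the highest samples for 13 of 16 cell cycle genes (81.2%) and for 5 of 19 other machinery genes. Among them were, chosen here after their values were seen, Rrm2, a subunit of ribonucleotide reductase, with 2.83, 5.1, 5.4 and 2.25 CPM, and Pcna, the sliding clamp of DNA replication, with 155, 164, 248 and 118 CPM in Dnmt1fl/fl replicates 1 and 2 and Dnmt1KO replicates 1 and 2. Cdca7, the partner of HELLS, chosen in the same way, had 1.66, 3.07, 3.89 and 1.61 CPM. This split ran across the genotypes and not between them. The same samples had the higher marker sums of neutrophils and of mesothelial and stromal cells. They also had the higher macrophage and T cell sums, but narrowly. Macrophage markers had 5980 and 6002 CPM in Dnmt1fl/fl, and T cell markers 20.8 and 20.6 CPM in Dnmt1KO. B cell, mast cell, eosinophil and dendritic cell markers did not follow the pattern. The counts of Dnmt1fl/fl replicate 2 and Dnmt1KO replicate 1 leaned to shorter genes, with a slope of -0.0994 and -0.545 per 10-fold gene length on the log2 scale, against 0.332 and 0.313 in the other samples. After removal of the length trend the count was again 13 of 16 cell cycle genes, against 28.3% of all genes, but Pcna was no longer among them, with 164, 159, 229 and 125 corrected CPM. Uhrf1 and Hells had their highest values in those samples also after the correction, and Uhrf2 and Usp7 joined them, which made 4 of 8 members. The part of RNA from neutrophils or other cells in this pattern was not tested. Dnmt1 did not share the pattern, since its highest value was in Dnmt1fl/fl replicate 1.

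**Figure D4:**
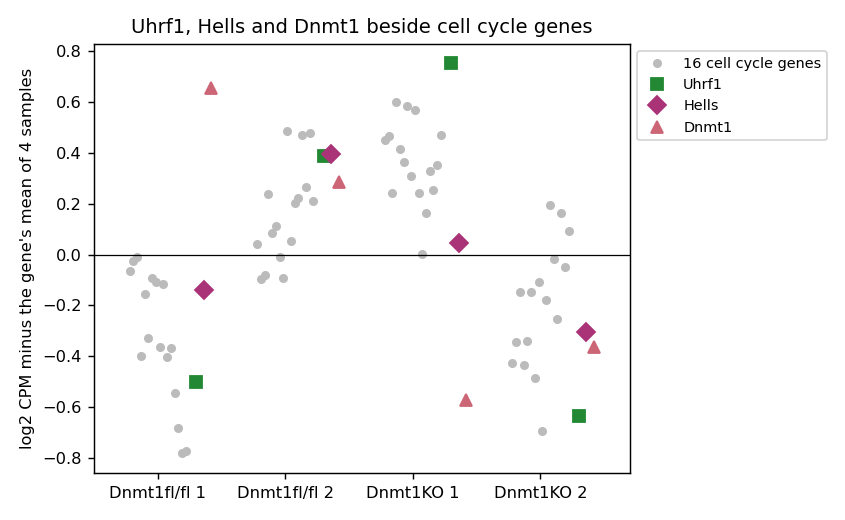
Log2 CPM of Dnmt1, Uhrf1 and Hells and of the 16 cell cycle genes in the 4 samples, each centred on its own mean, with samples on the horizontal axis and the difference from the mean on the vertical axis. Uhrf1, Hells and 13 of the 16 cell cycle genes are highest in Dnmt1fl/fl replicate 2 and Dnmt1KO replicate 1, and Dnmt1 is not. For Hells this order lies within counting error.

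The wider machinery of DNA methylation and of DNMT1 stability showed no member past a threshold. Of 20 listed genes 19 were tested, with Dnmt3l, the cofactor of de novo methylation, not listed, and 0 passed the unadjusted or the adjusted p in edgeR. Their log2 fold changes lay between -0.11 and 0.26, with a median of 0.05. Both knockout samples lay above both Dnmt1fl/fl samples in 2 of 19 (8.14% of all tested genes) and below them in 0 of 19 (8.56% of all tested genes), so that the counts give no result about the list. One was Lig1, the ligase that joins replicated DNA, with 17.3 and 16.5 CPM in Dnmt1fl/fl and 21.9 and 17.5 CPM in Dnmt1KO (log2 fold change 0.22, SE 0.24, and 0.05 without Dnmt1KO replicate 1). The other was Akt1, a kinase reported to phosphorylate DNMT1, with 278 and 285 CPM in Dnmt1fl/fl and 330 and 285 CPM in Dnmt1KO (log2 fold change 0.13, SE 0.22, and 0.017 without Dnmt1KO replicate 1). For the cell cycle list, 0 of 16 genes passed either threshold and the median log2 fold change was 0.18. Pcna stands in both lists.

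Germline genes whose promoters are kept silent by methylation were mostly not listed, since the table holds only genes above 0 in all 4 samples. Of 21 such genes 5 were listed and 1 was tested. This was Dpep3, a dipeptidase of the testis, with 4.43 and 4.39 CPM in Dnmt1fl/fl and 2.52 and 2.71 CPM in Dnmt1KO (log2 fold change -0.75, SE 0.34, 95% interval -1.61 to 0.11, edgeR adjusted p 1.00). Its groups did not overlap, as in 8.56% of all tested genes, and the interval reached 0. A germline gene that is at 0 in any sample, whatever its other values, could not be seen.

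In the main setting with all 4 samples, both the gene whose promoter drives Cre and its paralog passed the unadjusted threshold. Neither passed the adjusted one. Lyz2, the macrophage lysozyme whose promoter drives Cre, had 29531 and 28587 CPM in Dnmt1fl/fl and 11351 and 15745 CPM in Dnmt1KO (log2 fold change -1.10, SE 0.32, edgeR adjusted p 1.00). Its log2 fold change was -0.89 without Dnmt1KO replicate 1 and -1.36 without Dnmt1KO replicate 2. Its near-identical paralog Lyz1 had 369 and 378 CPM in Dnmt1fl/fl and 702 and 1230 CPM in Dnmt1KO (log2 fold change 1.37, SE 0.33, edgeR adjusted p 1.00, and 0.91 without Dnmt1KO replicate 2). Reads may be shared between these paralogs by the counting, so that the level of each is uncertain. The number of Cre alleles is not given in the sources used here. Only the Dnmt1KO samples carried Cre, so that Cre and the loss of Dnmt1 are confounded in both genes, and their parts were not tested. The groups did not overlap in either gene, as in 8.56% of all tested genes for lower and 8.14% for higher values in the knockout.

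Among the 8456 tested genes with a mean of at least 10 CPM, those whose profile over the 4 samples lay closest to that of Dnmt1 were named, by the distance between centred log2 CPM values. The closest was Stap1, a signalling adaptor, with 60.1 and 51 CPM in Dnmt1fl/fl and 31.3 and 33.6 CPM in Dnmt1KO, at a distance of 0.21. Serpinb1a, a protease inhibitor, followed at 0.26, then Cd83, an activation marker, at 0.34, Lyz2 at 0.35 and 5730455P16Rik at 0.37. The distance of Dnmt1 from a flat profile was 0.99, and 2 genes lay within 0.3 of it. A profile over 4 samples holds little information, and for Lyz2 the loss of Dnmt1 is confounded with Cre.

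Among markers of other peritoneal cells, Dnmt1KO replicate 1 had the highest mesothelial and stromal sum and the lowest eosinophil and dendritic cell values. T cell markers summed to 14.8, 23.9, 20.8 and 20.6 CPM and dendritic cell markers to 11.9, 12.1, 8.23 and 17.2 CPM in Dnmt1fl/fl replicates 1 and 2 and Dnmt1KO replicates 1 and 2. Mast cell markers summed to 5.9, 4.7, 4.75 and 3.98 CPM, the single listed eosinophil marker of 3 had 7.6, 4.35, 1.87 and 5.3 CPM, and mesothelial and stromal markers summed to 24.7, 32.9, 66.4 and 16.8 CPM. The T cell receptor gene Trac had 1.85 and 2.87 CPM in Dnmt1fl/fl and 3.18 and 3.14 CPM in Dnmt1KO (log2 fold change 0.42, SE 0.41, and 0.14 without Dnmt1fl/fl replicate 1). Of the 5 T cell markers 3 had a log2 fold change above 0 and 2 below, Cd3g at -0.22 and Lck at -0.07. The mast cell protease gene Cpa3 had 3.85 and 2.75 CPM in Dnmt1fl/fl and 2.02 and 2.46 CPM in Dnmt1KO (log2 fold change -0.56, SE 0.41, and -0.30 without Dnmt1fl/fl replicate 1). Of the other mast cell markers, Tpsb2 went the other way (log2 fold change 0.25). Mcpt4 was at -0.23, with 0.959 and 0.381 CPM in Dnmt1KO replicates 1 and 2.

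Across other ways of processing, Dnmt1 kept its sign in every setting, with log2 fold changes of -1.01 to -0.83 in the settings with all 4 samples and -1.12 to -0.75 when 1 sample was left out. Its edgeR adjusted p was 0.02 without Dnmt1KO replicate 2, a setting with 1 knockout sample that called 1061 genes in all, and its unadjusted p rose to 0.141 without Dnmt1fl/fl replicate 1. Dmap1 kept its sign too, and the other 6 members changed sign in at least 1 setting.

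**Figure D5:**
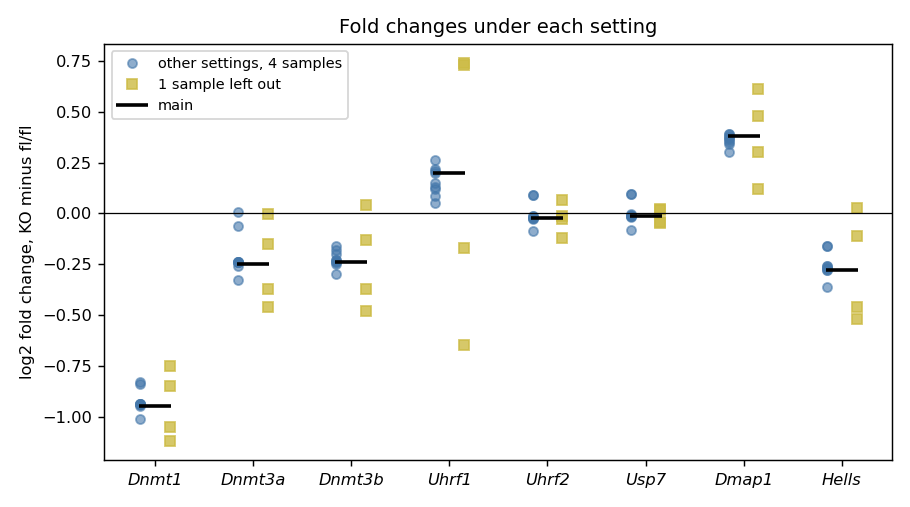
Log2 fold change of Dnmt1KO against Dnmt1fl/fl of each member under every processing setting, with the main setting marked and a line at 0. Dnmt1 stays between -1.12 and -0.75 and Dmap1 above 0, while the points of the other 6 members fall on both sides of 0.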

How the data were processed

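RNA was sequenced on an Illumina NovaSeq in paired-end mode from 2 Dnmt1fl/fl and 2 Dnmt1KO samples. The authors aligned reads with HISAT2 2.0.5 to mm10 and counted them with featureCounts 1.5.0-p3, per the submitters' processing notes, and their own test was DESeq2 1.20.0. The deposited values are estimated counts per gene, not all of them whole, for genes above 0 in all samples. The annotation, the strand setting and the sharing of reads between genes are not given in the sources used here. A shorter table of the authors' own selection was not used.

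Counts were rounded, filtered with filterByExpr, scaled with TMM and tested with edgeR 4.0.16 (quasi-likelihood F-test, two-sided) in R 4.3.3, with Benjamini-Hochberg adjustment over 12542 genes. Replicates varied with a coefficient of variation of 28.9% (common dispersion 0.0837). Standard errors came from the quasi-likelihood statistic. Totals of 20228071 to 24198943 counts per sample set the precision, and intervals of single counts are exact Poisson intervals, which cover counting error only. The models were tested on simulated data.

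Alternatives were library totals without TMM, no filter, a minimum of 10 counts, DESeq2 1.42.0, limma-voom (limma 3.58.1), a replicate block, a correction for gene length (a loess trend with span 0.5 taken out of each library), and each sample left out. The crossed pairing was chosen after seeing the data. Exact permutation tests used SciPy 1.17.1. The table gives symbols without coordinates. Positions and exon lengths were taken from GENCODE vM21 and matched by symbol (98.7% of tested genes), on GRCm38, the assembly of mm10. RefSeq promoters of GRCm38.p6 were matched by symbol.

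The members and lists were chosen with earlier results of these data known. All 8 members were named; from the other lists, genes with an unadjusted p under 0.05 and otherwise the 3 largest changes whose groups did not overlap; the 5 genes closest to Dnmt1; and Lyz2 and Lyz1.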

Additional observations from a re-analysis of the deposited data

How the results depend on the processing

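Of 413 comparisons of a result with an alternative, 366 kept their direction and side of the threshold or stayed within 1.5 times the count. With the length correction the log2 fold change was 0.0052 for Dnmt3a, 0.092 for Uhrf2 and 0.096 for Usp7, and with the block and the length correction 0.091 for Uhrf2 and 0.093 for Usp7. Without TMM 2 members were lower in both knockout samples, as were 10.5% of tested genes. Genes with an edgeR adjusted p under 0.05 numbered 0, and 1 in DESeq2 and 2 with block and length correction. Unadjusted, they numbered 35, and 60 without the filter and 56 with block and length correction. With each sample left out in turn, which leaves 1 sample in an arm whose spread is taken from the other group, ranges were -1.12 to -0.75 for Dnmt1, -0.46 to -0.0025 for Dnmt3a, -0.48 to 0.04 for Dnmt3b, -0.65 to 0.74 for Uhrf1, -0.12 to 0.065 for Uhrf2, -0.049 to 0.022 for Usp7, -0.52 to 0.024 for Hells, -0.56 to 0.73 for Cdca7, -0.83 to 0.44 for Rrm2 and -0.43 to 0.64 for Pcna. In the same way 0 to 1 members passed the adjusted p, 0 to 2 the unadjusted p (Dnmt1 and Dmap1 without Dnmt1KO replicate 2), 3 to 4 were lower and 1 to 2 higher in the knockout (19.7% to 41.9% and 19.8% to 41% of tested genes), and 0 to 1061 genes passed the adjusted p (1061 without Dnmt1KO replicate 2) and 43 to 3521 the unadjusted one. Other machinery and cell cycle genes past the unadjusted p numbered 0 to 4 each. The cause was not tested.

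Whether same-numbered samples were handled together is not given in the sources used here. The correlation of same-numbered deviations was -0.41. With 2 samples per group the crossed correlation is fixed as its opposite, 0.41, so it cannot decide this. With the replicate block the Dnmt1 log2 fold change was -0.94 (edgeR unadjusted p 0.0247, adjusted p 1.00), and 34 genes passed the unadjusted p. Pairing the samples the other way gave 3 genes with an adjusted p under 0.05 and 297 unadjusted.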
